A study of Mus musculus with 12 samples.

Results

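The immediate early genes are the first genes a cell transcribes after a stimulus. The 10 members described here are Fos, Fosb, Jun, Junb, Egr1, Egr3, Nr4a1, Ier2, Atf3 and Dusp1, chosen by symbol from 23238 symbols in the files. All 10 had a row, and all 10 passed the filter on low values, which kept 11955 genes. Egr3 passed it in exactly 4 libraries, none of them labelled SJL_B6. The main counts and medians over members in each comparison are therefore also given without it. Other counts, means and medians over members, and correlations with the mean of the 10, include Egr3 unless stated.

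As background, growth factors, calcium, mechanical strain and cell stress switch these genes on within minutes, without new protein synthesis, through transcription factors that already sit at their promoters. Their mRNAs are short-lived, so their levels follow recent signalling and are also known to rise during tissue dissociation. Fos and Jun proteins pair into the AP-1 transcription factor, Egr and Nr4a proteins bind DNA on their own, and Dusp1 is a phosphatase that switches MAP kinases off again.

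The title names DSCR1, known in the mouse as Rcan1, which encodes a calcineurin inhibitor, and Alzheimer's disease. The 12 libraries come from mouse meninges, the membranes around the brain. Each group has 4 libraries by title: SJL_B6, AD_B6 and AD_TG. The labels give the strain C57BL/6, the tissue meninge and an age of 20 weeks for all of them, and do not spell out SJL, AD, B6 or TG, nor name a promoter or allele. Magnetic beads were used to enrich lymphatic endothelial cells, with 3 to 4 mice used per strain. Libraries were made with QuantSeq, a kit that reads transcript ends, from 500 ng of RNA each. The labels do not tie libraries to animals, so p-values measure only the spread between these samples, which may be technical.

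Per library, 4063172 to 9267212 assigned reads were estimated and 8748 to 12217 genes had reads. Of the 10 lymphatic endothelial markers, Pdpn, Nr2f2 and Nrp2 had reads in all 12 libraries, Lyve1 in 11, Ccl21a and Itga9 in 9, Flt4 and Mmrn1 in 6, Reln in 4 and Prox1, which sets lymphatic identity, in 2. All 10 macrophage markers, among them Csf1r and Cd68, had reads in all 12. In bulk RNA, fewer cells of a type and less RNA per cell cannot be told apart. AD_B6 replicate 2 and AD_TG replicate 2 stood high and SJL_B6 replicate 1 stood low in many members, as the values below show.

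The start regions of the members are described by their letters, and whether these letters bear on the members' levels was not tested. RefSeq windows of GRCm38.p6, from 250 bases before to 50 after each start, were matched for 7 of the 10 members, and Egr1, Egr3 and Ier2 were not matched. The letters TGACG on either strand, the core of the site bound by CREB and ATF proteins, lay in 6 of the 7 windows and in 20.8% of all 32851 windows. Of 7 close relatives of the members, named further below, 6 were matched, and 4 of these held the letters in at least 1 window. The lines below give, 5′ to 3′ on the gene's strand, the stretch before the start that holds these letters, with TGACG or its reverse complement CGTCA in capitals.
Fos: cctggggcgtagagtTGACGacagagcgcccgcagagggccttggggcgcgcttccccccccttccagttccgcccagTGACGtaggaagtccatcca
Fosb: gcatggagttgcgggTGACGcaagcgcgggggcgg
Junb: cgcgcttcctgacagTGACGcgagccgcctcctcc
Nr4a1: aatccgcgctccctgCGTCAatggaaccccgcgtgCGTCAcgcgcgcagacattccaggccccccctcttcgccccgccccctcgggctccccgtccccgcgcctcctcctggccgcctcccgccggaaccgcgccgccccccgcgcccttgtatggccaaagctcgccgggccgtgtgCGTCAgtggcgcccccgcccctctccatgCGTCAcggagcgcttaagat
Atf3: ctattaatagcattaCGTCAgc
Dusp1: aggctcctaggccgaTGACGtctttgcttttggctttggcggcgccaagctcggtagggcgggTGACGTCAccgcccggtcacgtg

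These stretches lie at chr12:85473746-85473843 (plus strand) for Fos and chr7:19310086-19310120 (minus) for Fosb. The Junb stretch is chr8:84978835-84978869 (minus) and the Nr4a1 stretch chr15:101266598-101266825 (plus). Atf3 follows at chr1:191183334-191183355 (minus) and Dusp1 at chr17:26508593-26508678 (minus). Nr4a1 held the letters 4 times, Dusp1 3 times and Fos 2 times, and the Jun window did not hold them. In Dusp1, 2 of the matches overlap in the full palindrome TGACGTCA, which 1.79% of all windows held and no other matched member did. The Egr site GCGNGGGCG, searched on both strands, lay in the windows of Fosb and Nr4a1 (5.55% of all windows). The AP-1 letters TGANTCA (7.81% of all windows) and the CArG box of serum response factor (1.63%) were in none of the 7, which says only that these letters are not in these windows. A match is a description of letters, not a bound site.

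All levels that follow are deposited log2 values, in the order of replicates 1 to 4, and a difference of 1 on this scale is a doubling. A gene was taken to have reads at a linear value of 0.3 or more.

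The AP-1 partners came first. Fos, the classic partner of Jun, had SJL_B6 values of 8.18, 9.66, 9.34 and 11.26, AD_B6 values of 8.62, 10.76, 9.08 and 11.16, and AD_TG values of 9.30, 10.89, 11.23 and 9.23. Each group held both low and high libraries, and the groups overlapped over most of their range. Fosb, its close relative, stood at 6.86, 7.46, 7.64 and 8.65, at 6.14, 9.21, 7.26 and 8.24, and at 6.88, 10.64, 7.53 and 8.38 in the same order of groups. The highest value of Fosb was that of AD_TG replicate 2 and the next that of AD_B6 replicate 2. Jun, the partner that can also pair with itself, had SJL_B6 values of 9.80, 11.50, 10.75 and 11.65, AD_B6 values of 10.88, 12.52, 10.09 and 11.19, and AD_TG values of 10.63, 12.68, 11.74 and 11.05. Again both replicates 2 of the AD-labelled groups were the highest libraries.

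Junb, a Jun relative that can restrain Jun, stood at 11.25, 11.57, 11.25 and 11.10 in SJL_B6, a spread of 0.20 (SD, n = 4). The AD_B6 values were 10.56, 12.78, 11.01 and 10.29 (SD 1.12), and the AD_TG values 9.60, 12.71, 10.89 and 11.31 (SD 1.28). The 4 SJL_B6 libraries thus lay inside the range of both other groups, and whether the spreads differ was not tested. Atf3, a stress-induced factor that pairs with Jun proteins, had SJL_B6 values of 1.76, 7.46, 6.72 and 5.92, AD_B6 values of 7.24, 9.70, 5.88 and 5.28, and AD_TG values of 7.66, 10.46, 5.50 and 7.86. Its lowest value, in SJL_B6 replicate 1, rested on an estimated 2.03 reads and its highest, in AD_TG replicate 2, on 1803.

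The zinc finger factors followed. Egr1, which is induced through serum response factor in most tissues, had SJL_B6 values of 10.26, 10.72, 10.65 and 10.87, AD_B6 values of 10.40, 12.84, 9.98 and 11.40, and AD_TG values of 9.47, 13.82, 10.89 and 11.38. The SD was 0.26 in SJL_B6, 1.27 in AD_B6 and 1.81 in AD_TG (n = 4), and replicate 2 was the highest library of both AD-labelled groups. Those libraries were also the highest of all 12 in Egr1. Egr3, a relative of Egr1 with a similar DNA-binding domain, had no library with reads in SJL_B6. In AD_B6 it stood at 7.84 in replicate 2 and 3.35 in replicate 4, and it was listed at 0 in replicates 1 and 3. In AD_TG it stood at 5.79, 7.41 and 7.14 in replicates 1, 2 and 4 and was listed below 1 read in replicate 3. It rested on an estimated 7.08 to 270.8 reads in the 5 libraries where it had any. Because it passed the filter through AD-labelled libraries alone, its differences from SJL_B6 are not given.

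Nr4a1, an orphan nuclear receptor induced by calcium and growth signals, had SJL_B6 values of 1.14, 8.82, 10.26 and 10.06, AD_B6 values of 7.52, 12.05, 8.28 and 7.89, and AD_TG values of 8.44, 11.89, 7.69 and 9.85. SJL_B6 replicate 1 had an estimated 1.02 reads, whereas the other 11 libraries had 182.5 to 5040. Ier2, a small nuclear protein of the early response, was listed below 1 read in SJL_B6 replicate 1 and stood at 6.92, 6.72 and 9.37 in replicates 2 to 4. The AD_B6 values were 6.37, 5.63, 8.32 and 5.84 and the AD_TG values 1.49, 9.47, 7.29 and 8.66, so that AD_B6 replicate 2 was not high in Ier2. Dusp1 had SJL_B6 values of 7.37, 10.88, 8.48 and 8.82, AD_B6 values of 10.07, 9.66, 6.95 and 10.38, and AD_TG values of 10.32, 11.65, 10.07 and 10.14. The AD_TG libraries spanned 10.07 to 11.65 in Dusp1, yet SJL_B6 replicate 2 lay above 3 of them.

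**Figure D1:**
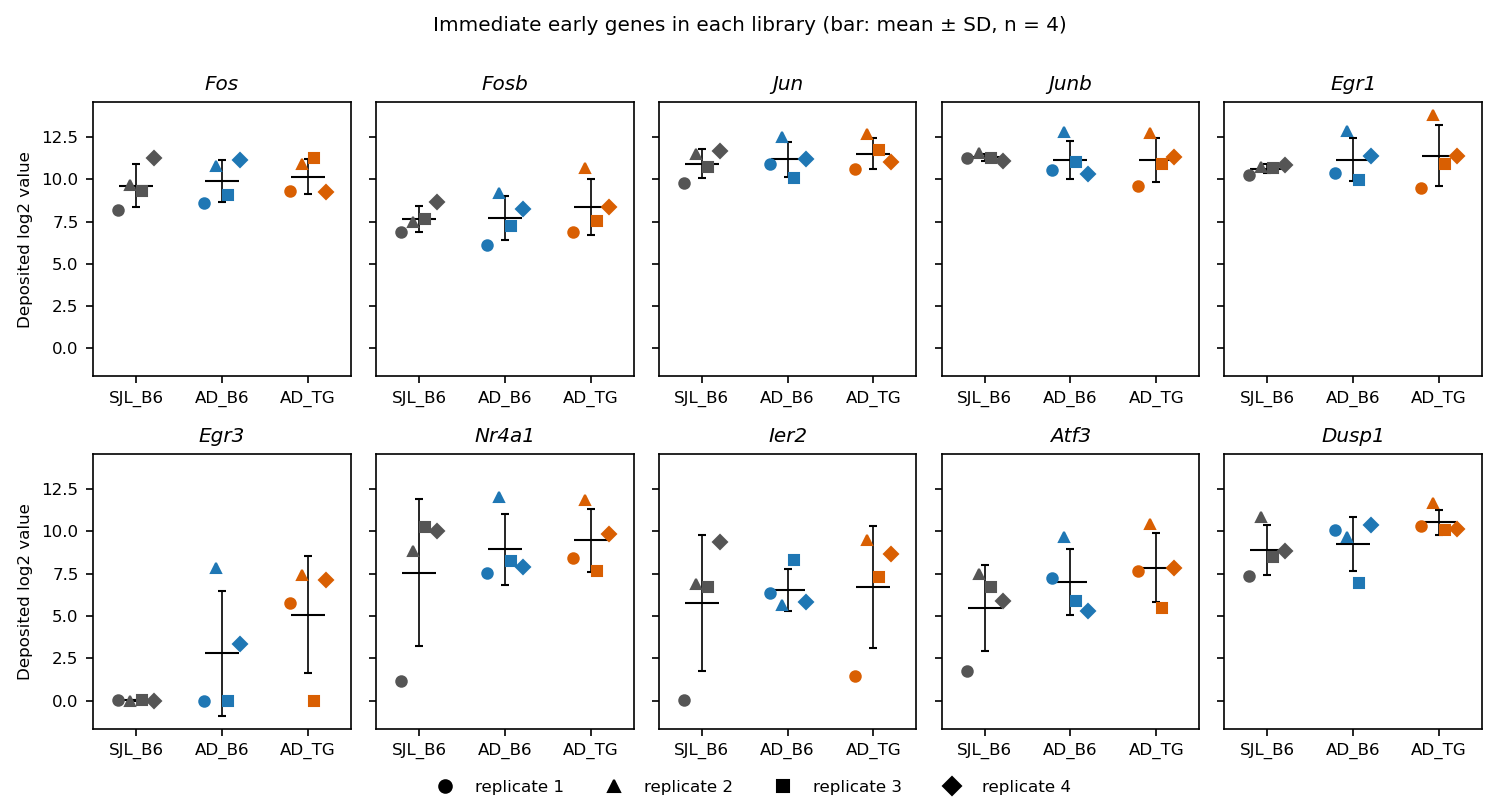
Deposited log2 value (vertical axis) of each of the 10 immediate early genes in the 4 libraries of each group (horizontal axis), with the marker shape giving the replicate number and bars the mean ± SD (n = 4). Replicate 2 of AD_B6 and of AD_TG (triangles) lies at the top of its group for most genes, replicate 1 of SJL_B6 (circle) at the bottom, and in none of the 10 genes do 2 groups separate.

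Counted over members, AD_TG replicate 2 was the highest library for 6 of the 10 and among the highest 2 for 9. AD_B6 replicate 2 was the highest for 3 (Junb, Egr3 and Nr4a1) and among the highest 2 for 7. Over all genes tested, these libraries were among the highest 2 for 17.2 and 18.2% of genes. SJL_B6 replicate 1 was the lowest for 5 members, Fos, Jun, Nr4a1, Ier2 and Atf3, although it had the most genes with reads, 12217. Nr4a1, Ier2 and Atf3 rested there on an estimated 1.02, 0 and 2.03 reads. The share of all genes for which a library was the single highest or the lowest was not counted. The mean of the 10 members was 11.16 in AD_TG replicate 2, 10.30 in AD_B6 replicate 2 and 5.67 in SJL_B6 replicate 1, beside 7.69 to 9.50 in the other 9 libraries. That mean includes Egr3, and no version without it was made. In SJL_B6 replicate 1 it took in Nr4a1 at 1.14, Atf3 at 1.76, and Ier2 and Egr3 below 1 read.

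AD_B6 was first compared with SJL_B6, groups whose titles differ in AD against SJL. No member passed, in limma with Benjamini-Hochberg adjustment over all genes, beside a background of 0% of the 11955 genes tested. At an unadjusted p under 0.05, limma counted 647 genes and 0 of the members, and no other tool was run. Of the 10 members, 9 had a positive difference, beside 40.2% of all genes tested, with a median of 0.45 beside -0.31 over all genes. Without Egr3, 8 of 9 were positive, with a median of 0.37. The estimate for Egr1 was 0.53 (95% interval -0.81 to 1.87), for Fos 0.29 (-1.15 to 1.73) and for Junb -0.13 (-1.24 to 0.98). Without AD_B6 replicate 2, Egr1 was at -0.029, without SJL_B6 replicate 1 or AD_B6 replicate 4, Fos was at -0.19 or -0.13, and without AD_B6 replicate 1 or 4, Junb was at 0.07 or 0.16. Nr4a1 differed by 1.37 (-1.64 to 4.37), and by -0.78 without SJL_B6 replicate 1 and 0.33 without AD_B6 replicate 2. Atf3 differed by 1.56 (-1.78 to 4.91), and by 0.33 without SJL_B6 replicate 1 and 0.67 without AD_B6 replicate 2. No member had groups that did not overlap, beside 0.912% of genes higher and 1.91% lower without overlap. The median turned to -0.14, with 3 of 10 positive (2 of 9 without Egr3), when SJL_B6 replicate 1 was left out. It was 0.12 without AD_B6 replicate 2, 0.80 and 0.73 without SJL_B6 replicates 2 and 4, and 0.75 and 0.76 without AD_B6 replicates 1 and 3. With every library centred on its own mean it was 0.92, beside 0.16 over all genes, and with the listing of unread genes (described below) as a term it was 0.25.

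The comparison of AD_TG with AD_B6, groups whose titles differ in TG against B6, again had 0 members past the threshold, beside 0% of all genes tested. At an unadjusted p under 0.05, limma counted 639 genes and 0 members. Positive differences were found in 9 of 10 members (8 of 9 without Egr3), beside 62.8% of all genes. The members' median was 0.44 (0.35 without Egr3) beside 0.41 over all genes. Dusp1 had an estimate of 1.29 (95% interval -0.30 to 2.88), with means of 10.55 ± 0.75 in AD_TG and 9.26 ± 1.57 in AD_B6 (SD, n = 4; adjusted p = 0.871 in limma). Without AD_B6 replicate 3, the lowest Dusp1 library of the 12, the difference was 0.52. Egr1 differed by 0.23 (-1.11 to 1.58), Jun by 0.35 (-0.71 to 1.42) and Junb by -0.03 (-1.15 to 1.08). Without AD_TG replicate 2, Egr1 was at -0.58 and Jun at -0.032, and without AD_B6 replicate 2, Junb was at 0.51. No member was free of overlap, beside 1.95% of genes higher and 0.928% lower without overlap. Centring every library on its own mean shifted the median of all genes to -0.22 and the median of the members to -0.19, with 4 of 10 positive. Without Egr3, the centred median of the members was -0.28, with 3 of 9 positive. The members' median was -0.073 without AD_TG replicate 2, 0.13 without AD_B6 replicate 1, 0.99 with the listing of unread genes as a term, 0.97 without AD_B6 replicate 2 and 0.89 without AD_TG replicate 1.

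In AD_TG against SJL_B6, whose titles differ in both parts, the members' median was 0.87 (0.77 without Egr3) beside 0.08 over all genes. Positive differences were found in 9 of 10 members (8 of 9 without Egr3), beside 53.3% of all genes, and 0 members passed, beside 0% of genes. At an unadjusted p under 0.05, limma counted 357 genes, of which 1 was a member other than Egr3, namely Dusp1. Dusp1 averaged 10.55 ± 0.75 in AD_TG and, in SJL_B6, 8.89 ± 1.47 (SD, n = 4). It differed by 1.66 (95% interval 0.07 to 3.25; adjusted p = 0.999 in limma). Without SJL_B6 replicate 1 its difference was 1.153, and without SJL_B6 replicate 2 it was 2.32. No member separated the groups, beside 1.46% of genes higher and 1.07% lower without overlap. The median fell to 0.26 without AD_TG replicate 2 and to 0.33 without SJL_B6 replicate 1, and rose to 1.57 without AD_TG replicate 1 and to 1.37 without SJL_B6 replicate 4. With Egr3 left out too, these medians were 0.21, 0.22, 1.40 and 1.10 in the same order. The 3 comparisons share libraries, so their signs are not independent of each other.

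**Figure D2:**
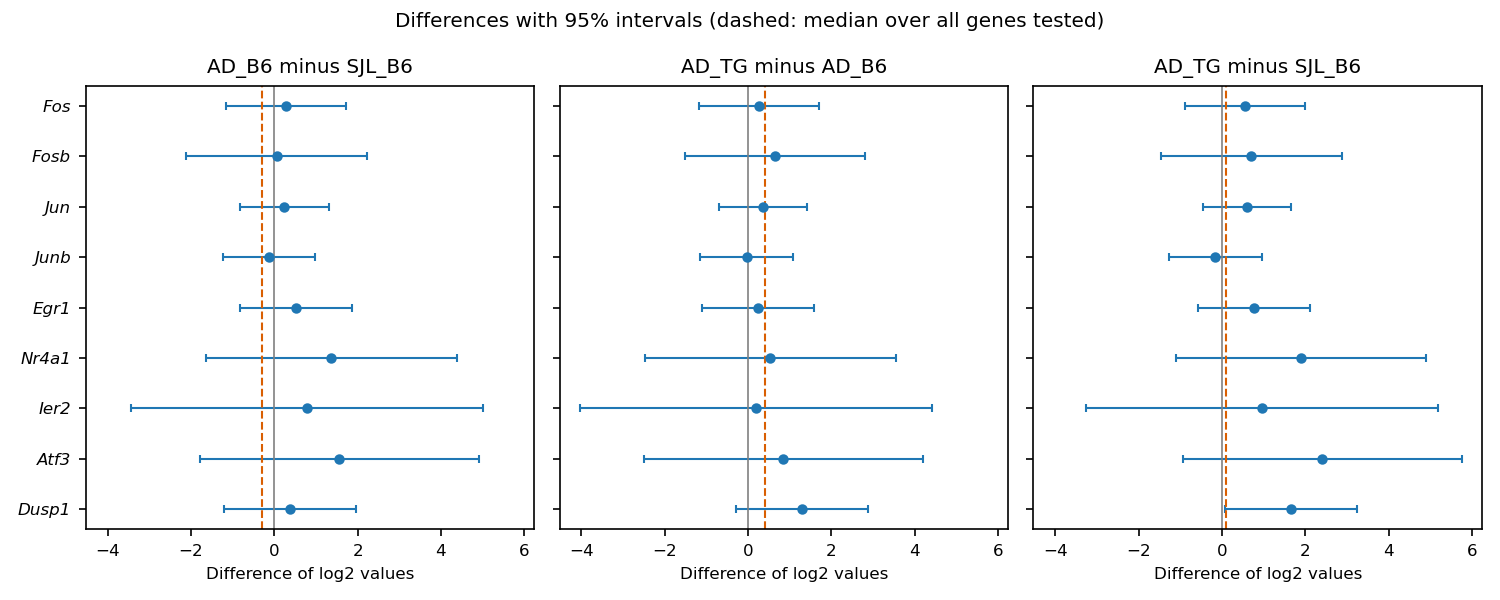
Difference of the deposited log2 values (horizontal axis) for 9 of the 10 genes (vertical axis) in the 3 comparisons, as limma estimates with 95% intervals; the solid line is 0 and the dashed line the median over all 11955 genes tested. Egr3 is left out. All intervals cross 0 apart from that of Dusp1 in AD_TG minus SJL_B6, whose lower end is 0.07.

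The files list genes without reads in 2 ways, at 0 in 7 libraries and at a small value above 0 in 5, and the differences were also taken within each kind. For AD_B6 minus SJL_B6 the members' median was -0.28 in the first kind (3 against 2 libraries) and 1.62 in the second (1 against 2). For AD_TG minus AD_B6 it was 1.57 (2 against 3) and -0.32 (2 against 1). For AD_TG minus SJL_B6 it was 1.24 and 1.26 (2 against 2 in each). The sign thus held within both kinds only for AD_TG minus SJL_B6. There the first kind holds AD_TG replicate 2, which stood high, and the second SJL_B6 replicate 1, which stood low. Each was 1 of the 2 libraries on its side. Over all genes tested, the medians in the 2 kinds were -0.27 and -0.09, 0.37 and 0.10, and 0.05 and 0.04 in the same order of comparisons. The members' medians include Egr3 and rest on 1 to 3 libraries a side.

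The members varied together from library to library. Because they were chosen with results of these data known, their correlations are given as a description with no p. Over the 12 libraries, Pearson's r was positive for 45 of the 45 pairs, with a median of 0.55 and a range of 0.04 to 0.91. Spearman's rho had a median of 0.47 and was positive for 44 pairs. Over all pairs of the 11955 genes tested the median r was 0.01, and 51.3% of pairs were positive. The libraries of a pair of genes share depth and cell content, and all 12 points are the same for every pair. Taking deviations from the group means left the median at 0.54, so the common variation lay mostly among libraries of the same label.

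Fosb and Egr1 followed each other most closely (r = 0.91, rho = 0.86), and r was 0.70 without both replicates 2, the libraries farthest from the Fosb median. Nr4a1 and Atf3 came next (r = 0.89, rho = 0.73), with 0.68 after leaving out the libraries farthest from the Nr4a1 median, SJL_B6 replicate 1 and AD_B6 replicate 2. Jun and Egr1 reached 0.84 (rho = 0.86) and 0.59 without both replicates 2. Junb and Egr1 reached 0.82, but with a rho of 0.53 and an r of 0.42 without both replicates 2 (0.70 without the libraries farthest from the Junb median, AD_B6 replicate 2 and AD_TG replicate 1). Fos and Jun, the AP-1 partners, had 0.78 (rho = 0.79), then 0.80 without both replicates 2 and also 0.80 without the libraries farthest from the Fos median, SJL_B6 replicate 4 and AD_TG replicate 3. At the other end, Egr3 and Ier2 had 0.04, Junb and Dusp1 0.13, Ier2 and Dusp1 0.24, and Fos and Egr3 also 0.24.

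Without AD_B6 replicate 2 and AD_TG replicate 2, the median r fell to 0.41, with 37 of 45 pairs positive. Without SJL_B6 replicate 1 as well, it was 0.23, with 30 of 45 positive, beside 0.02 over all pairs of genes. Pairs with an r over 0.5 numbered 29 with all libraries and 14 without both replicates 2. Junb lost most of its relation, with a median r to the other members of 0.44 before and -0.01 after. Ier2, which was not high in AD_B6 replicate 2, had 0.48 and 0.49. Within the 7 libraries that list unread genes at 0, the median r was 0.72 (41 of 45 positive), and within the other 5 it was 0.43 (35 of 45 positive). Those 5 hold neither replicate 2 of AD_B6 nor that of AD_TG, but they do hold SJL_B6 replicate 1.

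**Figure D3:**
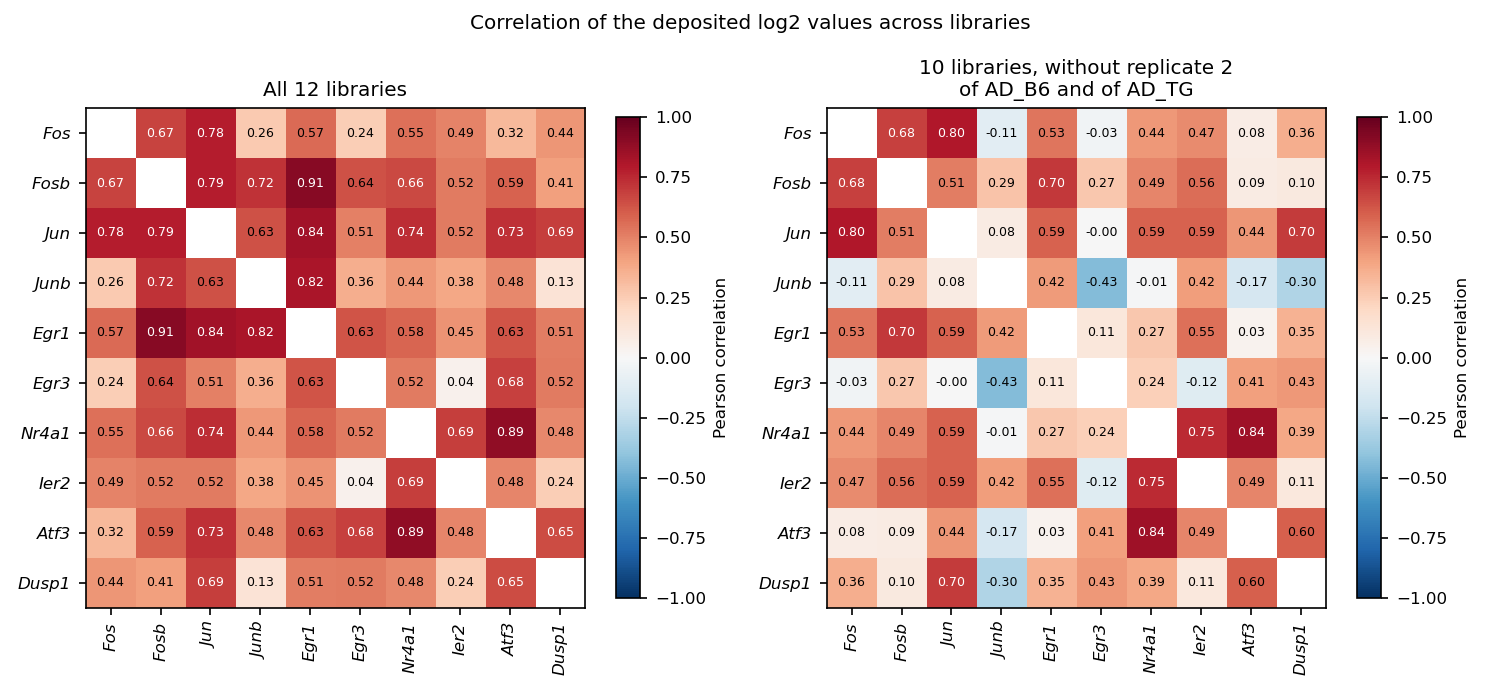
Pearson correlation of the deposited log2 values for each pair of the 10 genes (both axes), over all 12 libraries (left) and over the 10 that remain without replicate 2 of AD_B6 and of AD_TG (right), with colour from -1 to 1. The median falls from 0.55 to 0.41, while Fos with Jun and Nr4a1 with Atf3 stay at 0.80 and 0.84.

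Among close relatives of the members, 5 of 7 were tested and none passed. Positive differences were found in 1 of the 5 for AD_B6 minus SJL_B6, in 5 for AD_TG minus AD_B6 and in 3 for AD_TG minus SJL_B6. The shares of all genes tested were 40.2, 62.8 and 53.3% in that order. Fosl2, a Fos relative with slower kinetics, had SJL_B6 values of 8.38, 9.21, 9.86 and 9.77, AD_B6 values of 8.82, 9.995, 7.21 and 7.89, and AD_TG values of 9.13, 10.63, 10.48 and 11.33. Its difference in AD_TG minus AD_B6 was 1.91 (SE 0.69), with an unadjusted p of 0.0105 and an adjusted p of 0.871 in limma. Nr4a2, a receptor of the Nr4a1 family, stood at 11.66 in AD_B6 replicate 2 and 11.81 in AD_TG replicate 2, and at 9.44 or lower in the other 10 libraries. Of the SJL_B6 libraries, only replicate 2 had Nr4a2 reads, at 6.96. Nr4a3, the third of the family, had reads in 10 libraries and reached 9.24 in AD_TG replicate 2. Jund, the steady member of the Jun family, ran from 10.62 to 12.33 and had an SD of 0.49 over the 12 libraries, beside 0.87 for Jun. Egr2 had reads in 6 libraries, Fosl1 in 2 and Egr4 in 1, and neither of the last 2 could be tested.

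The other early response genes were a list of 44, of which 38 were tested. In AD_B6 minus SJL_B6, 9 of the 38 had a positive and 29 a negative difference, with a median of -0.71 beside -0.31 over all genes. In AD_TG minus AD_B6, 30 of the 38 were positive (median 0.85 beside 0.41), and in AD_TG minus SJL_B6, 22 were (0.31 beside 0.08). None passed in any comparison. Nfkbia, the inhibitor of NF-kappa B and itself an early target of it, averaged 11.83 ± 0.45, 10.90 ± 0.33 and 11.82 ± 0.68 (SD, n = 4) for SJL_B6, AD_B6 and AD_TG. Its estimate was -0.93 (SE 0.37) for AD_B6 minus SJL_B6, with an adjusted p of 0.869 in limma. Klf10, a factor induced by TGF-beta, had reads in none of the AD_B6 libraries and stood at 4.94, 7.68, 7.27 and 9.43 in AD_TG. In SJL_B6 it stood at 4.94, 1.63 and 5.23 in replicates 1, 2 and 4 and below 1 read in replicate 3.

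Klf6, a zinc finger factor of injured endothelium, stood at 10.86 ± 0.17 in AD_TG and 9.36 ± 1.72 in AD_B6 (SD, n = 4), where replicate 1 was lowest at 6.89 (adjusted p = 0.871 in limma). Klf2, which responds to fluid shear in endothelium, stood at 9.18 ± 1.46 in SJL_B6 and 6.29 ± 3.95 in AD_B6, and AD_B6 replicate 1 was at 0.95. Nfil3, a bZIP repressor, stood at 9.14, 4.40, 7.10 and 8.90 in AD_TG, whereas in SJL_B6 only replicate 2 had reads, at 2.73. Like Egr3, Nfil3 passed the filter on low values through AD-labelled libraries alone, so its difference from SJL_B6 is not given. Mafk, a small Maf protein, ran the other way, at 7.19 ± 2.39 in SJL_B6 and 2.01 ± 2.58 in AD_TG (adjusted p = 0.999 in limma).

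Against the mean of the 10 members over the 12 libraries, 31 of the 38 other early response genes had a positive r, with a median of 0.31. Without both replicates 2, 26 were positive (median 0.24), and without SJL_B6 replicate 1 as well, 33 were (0.34). Over all other genes tested, 51.5% were positive and the median was 0.01. These were 50.25% and 0.003 without both replicates 2, and 57.7% and 0.08 without SJL_B6 replicate 1 as well. Btg2, an antiproliferative early gene, had the highest r of the 38, 0.81, and 0.58 without both replicates 2. It was named after its value was seen. Of the 17 tested genes upstream of the members (serum response factor and its partners, CREB, the MAP kinases and their kinases), 8 had a positive r, with a median of -0.06. Without both replicates 2, 6 were positive (median -0.07), and without SJL_B6 replicate 1 as well, 6 were (-0.14). None of the 17 passed, and 8, 9 and 9 had a positive difference in AD_B6 minus SJL_B6, AD_TG minus AD_B6 and AD_TG minus SJL_B6. The shares of all genes tested were 40.2, 62.8 and 53.3% in these comparisons.

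Heat shock genes, which encode chaperones and respond to stress of the cell, were set against the mean of the members in the same way. Of 11 genes, 9 had a positive r, with a median of 0.57. The 5 tested relatives had a median of 0.48, and 0.46 without both replicates 2. The heat shock median was 0.31 without AD_B6 replicate 2 and AD_TG replicate 2, 0.66 without SJL_B6 replicate 1 and 0.49 without all 3, with 9 to 10 of 11 positive in each. Over all other genes tested, the median r in these sets of libraries was 0.003, 0.04 and 0.08, with 50.25, 54.4 and 57.7% positive. Hspa1a, the inducible HSP70, stood at 11.55 in AD_B6 replicate 2 and 10.49 in AD_TG replicate 2, and at 7.45 to 10.18 in the other 10 libraries. None of the 11 passed in limma, and 8, 8 and 10 had a positive difference in the same order of comparisons, with medians of 0.34, 0.23 and 0.56. Over all genes tested, the medians were -0.31, 0.41 and 0.08, and 40.2, 62.8 and 53.3% of genes were positive. The heat shock median thus lay below that of all genes in AD_TG minus AD_B6. Hspd1 and Hspe1 were the 2 without a positive r, at -0.07 and -0.36. Hspa1a is given as an example chosen after its value was seen. The same was done for the 8 cell type marker lists. Their medians ran from -0.31 (meningeal fibroblast, 1 of 8 positive) to 0.29 (neuron, 4 of 5). The meningeal fibroblast median was 0.28 (7 of 8) without both replicates 2 and -0.60 (1 of 8) without SJL_B6 replicate 1. Macrophage markers had 4 of 10 positive, and 0 of 10 without SJL_B6 replicate 1. Choroid plexus markers had 7 of 7 positive (0.10), and 3 of 7 without both replicates 2 (-0.02).

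The 6 genes most like the mean of the members, among 4933 other genes with reads in all 12 libraries, were Acadl (r = 0.87), Cntn1 (0.86), Dnaja1 (0.84), Psma3 (0.83), Col8a1 (0.82) and Elp3 (0.81). Acadl is a mitochondrial fatty acid dehydrogenase, Cntn1 a neuronal adhesion protein, Dnaja1 a co-chaperone of HSP70 and Psma3 a proteasome subunit. Col8a1 is a short collagen chain of vessel walls, and Elp3 the catalytic subunit of Elongator. SJL_B6 replicate 1 was the lowest library of all 6, at 6.75 for Dnaja1 and 4.82 for Elp3. Without both replicates 2, r was 0.82 for Acadl, 0.64 for Cntn1, 0.86 for Dnaja1 and 0.67 for Col8a1. Without SJL_B6 replicate 1, r over the 6 genes was 0.65 (Elp3) to 0.86 (Cntn1), and without all 3 libraries it was 0.17 (Acadl) to 0.54 (Elp3).

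**Figure D4:**
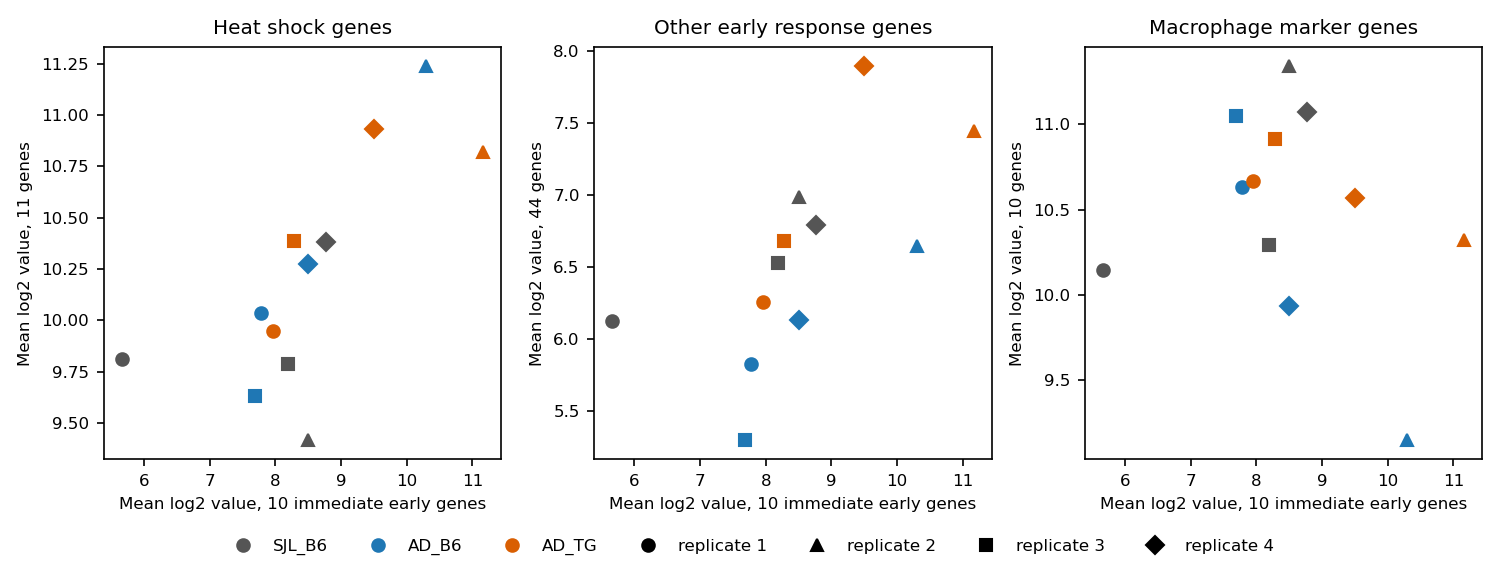
Mean deposited log2 value of 11 heat shock genes, 44 other early response genes and 10 macrophage markers (vertical axes) against the mean of the 10 immediate early genes (horizontal axis), 1 point per library, coloured by group and shaped by replicate number. The heat shock mean is highest in AD_B6 replicate 2, at 11.24, which has the lowest macrophage mean, 9.15.

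Cell content and depth were set beside these values, and their part in the results was not tested. The summed level of the 10 macrophage markers, as log2, spanned 14.58 to 15.27 for SJL_B6, 13.64 to 14.94 for AD_B6 and 14.32 to 14.79 for AD_TG. Of 100 relations between the 10 members and 10 library measures (depth, genes with reads and 8 marker lists), none passed adjustment, and 4 by Pearson and 3 by Spearman had an unadjusted permutation p under 0.05. Egr1 had an r of -0.59 to the macrophage level (rho = -0.55, and r = -0.50 without the 2 libraries farthest from the median), and Junb an r of 0.65 to the estimated reads (rho = 0.62, and r = 0.65 after leaving out 2 libraries in the same way). Egr3, with reads in 5 libraries, had the largest r and rho of the 100, to the macrophage level (r = -0.67, rho = -0.85). Jun had an r of 0.61 to the neuron marker level (rho = 0.56, and r = 0.82 after leaving out 2 libraries likewise). With those 2 libraries left out, r to the neuron level ran from 0.20 (Egr3) to 0.82 (Jun) over the members. All of these were named after their values were seen. The 10 lymphatic endothelial markers summed to 11.69 to 12.32, 11.18 to 11.81 and 11.39 to 11.89 in SJL_B6, AD_B6 and AD_TG, with 5 to 9 of the 10 having reads in a library. Exons of Jun, Junb and Dusp1 overlap those of Junos, Prdx2 and Ergic1 on the opposite strand, and the labels do not say whether counting used the strand.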

How the data were processed

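The authors deposited 1 file per library with log2 values per gene symbol, per the file headers and the values, which look like log2(scaled amount + 1). How the libraries were scaled is not given in the sources used here. The submitters' processing notes list hg19, a human build, beside Bowtie2 and bedtools, and give no versions, although the organism is mouse, and the deposited files gave no coordinates. For 35 symbols with several entries, only the entry of highest mean was used, which dropped 44 entries. Of 23238 symbols, 99.5% matched the mouse RefSeq table.

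Low linear values lay on even steps, taken as 1 read; 91.3 to 100% of the values under 20 were whole multiples to within 0.15 step, and total divided by step gave the estimated reads, which cover counting error only. The test was limma (version 3.58.1, R version 4.3.3; lmFit, then eBayes with trend), two-sided, fitted over all 12 libraries to genes that reached a linear value of 10 in 4 or more of them, with Benjamini-Hochberg adjustment over all genes tested and a threshold of 0.05. The fit was tested on simulated data. No 2 libraries were identical.

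The members and lists were chosen with earlier results of these data known. Named genes were the 10 members, 7 relatives (Fosl1, Fosl2, Jund, Egr2, Egr4, Nr4a2 and Nr4a3), the 3 other early response genes with the smallest unadjusted p per comparison, and the 6 genes with reads in all libraries most correlated with the mean of the members. Permutation p-values of single correlations, which had been planned, are not given because the members were chosen with results known. For the relations with library measures, only the counts passing and under 0.05 are given. The alternatives tried were no filter, a pseudocount of 10, quantile normalization, library means subtracted, a replicate block, fits of 2 groups, and leaving out each library. Those added after the data were seen were the listing of unread genes as a term leaving out the libraries that stood apart, and leaving out Egr3.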

Additional observations from a re-analysis of the deposited data

Results flagged for a closer look

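In 30 sets of 4 libraries (10 members in 3 groups), 3 had 1 library set far apart from the other 3 by Dixon's criterion, which chance alone would meet in about 1 of 20 sets. For Nr4a1 in SJL_B6, replicate 1 was at 1.14 while the other 3 libraries spanned 8.82 to 10.26. For Nr4a1 in AD_B6, replicate 2 was at 12.05 while the other 3 spanned 7.52 to 8.28. For Dusp1 in AD_TG, replicate 2 was at 11.65 while the other 3 spanned 10.07 to 10.32.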

How the results depend on the processing

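No alternative gave a gene past the threshold in any comparison; the lowest adjusted p of any gene was 0.0596, in limma for AD_TG minus AD_B6 without AD_B6 replicate 1. With a replicate block the counts stayed at 0 in all 3 comparisons. Libraries of the same number correlated by -0.02 to 0.07 in their deviations from group means, and those of unlike number by -0.07 to 0.06. The highest value was that of AD_B6 replicate 2 with AD_TG replicate 2. A library correlated best with its own number in 6 of 24 cases. These values are taken over all genes tested, so they cannot tell whether libraries of the same number share something in the members. Of the 30 differences of members, 21 changed sign under at least 1 alternative, and no member passed under any (lowest adjusted p 0.718 in limma). The causes were not tested.

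In AD_B6 minus SJL_B6, the difference became -0.17 for Fosb and -0.14 for Ier2 with the listing of unread genes as a term, and 0.34 for Junb with library means subtracted. Without AD_B6 replicate 2 and AD_TG replicate 2 it became -0.44 for Fosb, -0.21 for Jun and -0.029 for Egr1. In AD_TG minus AD_B6, subtracting library means gave a members' median of -0.19, with Fos at -0.37, Jun at -0.28, Egr1 at -0.40, Nr4a1 at -0.10 and Ier2 at -0.44. Junb became 0.22 with the listing term, Ier2 -0.15 with quantile normalization, and Egr1 -0.015 and Ier2 -1.03 without both replicates 2. In AD_TG minus SJL_B6, Fosb became -0.054 and Egr1 -0.0445 without both replicates 2.

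The median correlation between members was 0.47 as Spearman's rho, 0.41 without both replicates 2 and 0.23 without SJL_B6 replicate 1 as well. With the replicate block taken out of the values it was 0.23. Leaving out 1 library at a time gave 0.43 to 0.64.

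Leaving out each library in turn moved the members' median from -0.14 to 0.80 in AD_B6 minus SJL_B6, from -0.073 to 0.97 in AD_TG minus AD_B6 and from 0.26 to 1.57 in AD_TG minus SJL_B6. In AD_B6 minus SJL_B6 the ranges were -0.19 to 0.84 for Fos, -0.44 to 0.59 for Fosb, -0.21 to 0.60 for Jun, -0.67 to 0.16 for Junb and -0.029 to 0.92 for Egr1. They were -0.78 to 2.27 for Nr4a1, -1.13 to 1.99 for Ier2, 0.33 to 2.23 for Atf3 and -0.13 to 1.14 for Dusp1. In AD_TG minus AD_B6 they were -0.17 to 0.68 for Fos, -0.11 to 1.14 for Fosb, -0.032 to 0.80 for Jun, -0.56 to 0.51 for Junb and -0.58 to 0.87 for Egr1. They were -0.28 to 1.57 for Nr4a1, -0.73 to 1.93 for Ier2, -0.020 to 1.73 for Atf3 and 0.52 to 1.66 for Dusp1. In AD_TG minus SJL_B6 they were -0.054 to 1.20 for Fosb, -0.69 to 0.35 for Junb, -0.0445 to 1.40 for Egr1, -0.24 to 2.80 for Nr4a1 -0.94 to 2.72 for Ier2, 1.17 to 3.19 for Atf3 and 1.153 to 2.32 for Dusp1. The number of libraries and their spread limit the precision: Egr3 and Ier2 rested on 0 reads in some libraries.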
